A study of Mus musculus with 4 samples.

Results

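This account covers 34 genes of DNA replication and S phase, out of 27998 genes counted, in mouse microglia after irradiation of the brain. The genes were chosen by name from what they are known to do, with earlier results of these data already known. Of them, 10 belong to the replicative helicase and its loading, 11 to polymerases, the sliding clamp and its loaders, 3 to nucleotide supply, 4 to fork protection and checkpoints, 5 to chromatin and histones, and 1 is a transcription factor. All 34 had UMIs in the files. A UMI is a random tag by which each captured RNA molecule is counted a single time. The counts are 3′ tags with no scaling for length, so levels are compared between libraries and not between genes.

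Microglia of C57BL/6 mice, with the age given as postnatal day 21 for every sample, were profiled as single cells in droplets (10x Genomics Chromium). The 4 groups were irradiated at 6 h, sham at 6 h, irradiated at 1 week and sham at 1 week. The irradiated mice received 8 Gy to the whole brain as a single dose, and the sham mice were the controls. Each group was 1 library from a pool of 4 mice, so no difference has a replicate check, no test was possible, and single mice cannot be told apart. The labels give brain as the source while the design text speaks of hippocampal cells, and the design text states 8095 cells against 8486 barcodes in the files.

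Of these barcodes 8369 were kept, from 1582 to 2652 a library, with median depths between 3437 and 3594 UMIs a cell and 5675117 to 9736149 UMIs a library. Libraries shared between 4 and 12 barcodes in each pair. All 9 microglia markers were detected in every library, at 50523 to 60176 CPM (UMIs of the gene over all UMIs of the library, as parts per 1000000) in sum. Between 1 and 21 cells a library carried fewer than 5 of these 9 markers. Astrocyte markers summed to 258 CPM (6 of 6 detected) in the irradiated against 148 CPM (5 of 6, Aqp4 at 0) in the sham library at 6 h, and to 181 against 143 CPM at 1 week (6 of 6 in both). At 6 h oligodendrocyte lineage markers summed to 33.4 CPM (5 of 6, Mog at 0) in the irradiated against 16.4 CPM (5 of 6, Cspg4 at 0) in the sham library, and lymphocyte markers to 39.5 CPM (4 of 6, Cd3e and Nkg7 at 0) against 89.5 CPM (3 of 6, Ms4a1 also at 0). At 1 week border macrophage markers summed to 24.2 CPM (6 of 6) in the irradiated against 14.4 CPM (4 of 6, Lyve1 and Cd163 at 0) in the sham library. The part of these markers in the results was not tested. Cdkn1a, the p53-induced inhibitor of cyclin-dependent kinases that served as the readout of irradiation, was at 2945 CPM in the irradiated library against 52.2 CPM in the sham library at 6 h. At 1 week it was at 2207 CPM in the irradiated library against 56.7 CPM in the sham library. All intervals given here are exact 95% intervals for counting error only: conditional binomial for folds, Clopper-Pearson for shares and Poisson for sums. A difference is called higher or lower by size alone, from 1.5-fold and from 50 UMIs over both libraries, and a gene under 50 UMIs is called not measured in that comparison.

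Before S phase, Cdc6 helps to load the ring of Mcm2 to Mcm7 onto origins, and Cdc45 and the GINS complex turn that ring into the active helicase. Polymerase alpha with primase starts each strand, the Rfc complex loads the Pcna clamp for the processive polymerases, and ribonucleotide reductase and thymidylate synthase supply the deoxynucleotides. E2F factors switch on many of these genes on entry to S phase, while some of the proteins also serve DNA repair or outlast the cycle in resting cells. Microglia of the adult brain are known as long-lived cells of low turnover that keep the ability to divide.

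The promoters of the genes on which most of the results turn are shown here, because each carries or lacks an E2F-type motif. Each window holds the 250 bases before the RefSeq start on build GRCm38.p6, 5′ to 3′ on the gene's own strand, and capitals mark TTTCCCGC or TTTGGCGC in either direction.
Mcm6, chr1:128359706-128359955, minus strand: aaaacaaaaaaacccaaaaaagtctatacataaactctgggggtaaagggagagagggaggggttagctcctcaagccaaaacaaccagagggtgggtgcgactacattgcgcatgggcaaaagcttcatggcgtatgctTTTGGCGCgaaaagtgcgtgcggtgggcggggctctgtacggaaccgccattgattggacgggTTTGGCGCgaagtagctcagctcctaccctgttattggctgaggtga
Mcm5, chr8:75109259-75109508, plus strand: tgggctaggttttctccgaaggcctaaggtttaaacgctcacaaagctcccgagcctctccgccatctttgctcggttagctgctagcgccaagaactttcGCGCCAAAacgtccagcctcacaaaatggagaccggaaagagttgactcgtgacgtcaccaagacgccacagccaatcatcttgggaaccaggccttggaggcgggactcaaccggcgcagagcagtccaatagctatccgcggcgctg
Cdca7, chr2:72475969-72476218, plus strand: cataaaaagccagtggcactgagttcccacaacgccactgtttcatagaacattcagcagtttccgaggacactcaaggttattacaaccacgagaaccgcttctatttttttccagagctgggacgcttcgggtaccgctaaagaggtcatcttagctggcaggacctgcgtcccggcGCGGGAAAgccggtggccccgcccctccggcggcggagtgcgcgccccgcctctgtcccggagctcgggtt
Rrm2, chr12:24708004-24708253, plus strand: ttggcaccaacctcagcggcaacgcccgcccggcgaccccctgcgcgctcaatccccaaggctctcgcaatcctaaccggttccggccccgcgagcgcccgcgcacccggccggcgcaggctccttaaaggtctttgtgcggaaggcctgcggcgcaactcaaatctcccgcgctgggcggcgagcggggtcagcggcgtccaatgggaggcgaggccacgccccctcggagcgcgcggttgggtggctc

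The Mcm6 window held the motif at 110 and at 47 bases before the start, Mcm5 held it at 149 bases and Cdca7 at 71 bases, and none of these letter runs was in the Rrm2 window. Promoters were matched by symbol for 27 of the 34 genes. One of the motifs was in 8 of these 27 (29.6%), namely Mcm5, Mcm6, Mcm7, Cdc6, Pola1, Dtl, Hells and Cdca7, against 427 of all 32851 promoters (1.30%). The CCAAT box (CCAAT, both strands) was in 19 of 27 (70.4%), against 33.9% of all promoters. The CHR element of genes of the later cell cycle (TTTGAA, both strands) was in 4 of 27 (14.8%), against 16.0% of all. Listed genes were counted per gene, with a match at any start, and 3 of them had more than 1 start. The shares of all were counted per promoter, with 32851 promoters for 27025 genes, so the units differ. A match is a description of letters and not of binding.

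Rrm2, the small subunit of ribonucleotide reductase that is made in S phase (ENSMUSG00000020649, chromosome 12, 24708241 to 24714146, GRCm38), was the member most tied to a few cells. It had 18 UMIs in the irradiated library against 48 in the sham library at 6 h, and 92 in the irradiated library against 0 in the sham library at 1 week. The libraries thus ran from 11.9 CPM in irradiated microglia at 1 week to a count of 0 in the sham library of the same time. Its log2 fold at 6 h was -1.01 (-1.88 to -0.20). At 1 week the fold was at least 22.6 with the sham library put at 3 counts, and the lower bound of the interval was 4.17 on the log2 scale.

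The 18 UMIs at 6 h after irradiation lay in 2 cells, which held 3 and 15 UMIs. In the sham library at 6 h 13 cells carried Rrm2, with a median of 2 UMIs and at most 13. The irradiated library at 1 week had 26 carrying cells with a median of 2.5 and at most 10 UMIs. None of the 1582 cells of the sham library at 1 week carried it, which allows a share of carrying cells of up to 0.190% by the rule of 3 counts, or 0.233% by the exact interval. The 6 h fold therefore rests on a count in which 1 cell supplied 15 of 18 UMIs.

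Of 7 measured helicase genes, 4 were lower in irradiated microglia at 6 h, where 9.31% of all measured genes were, and 5 were higher at 1 week, where 4.01% of all were. Mcm6, a subunit of the helicase ring (ENSMUSG00000026355, chromosome 1, 128331590 to 128359664), had 45 UMIs (6.11 CPM) in the irradiated library against 133 (13.7 CPM) in the sham library at 6 h. At 1 week it had 146 UMIs (18.9 CPM) in the irradiated library against 50 (8.81 CPM) in the sham library. The irradiated libraries were the lowest and the highest of the 4, with both sham libraries between them. The log2 fold was -1.16 (-1.68 to -0.66) at 6 h and 1.10 (0.63 to 1.60) at 1 week.

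Mcm5, another ring subunit (ENSMUSG00000005410, chromosome 8, 75109569 to 75128439), was at 3.12 CPM in the irradiated library against 5.96 CPM in the sham library at 6 h. At 1 week it was at 12.4 CPM in the irradiated library against 6.34 CPM in the sham library. Gins2, a subunit of the GINS complex (ENSMUSG00000031821, chromosome 8, 120578633 to 120589304), had the same directions, at 3.12 against 6.47 CPM at 6 h and 8.29 against 5.11 CPM at 1 week, irradiated against sham. For Mcm5 the log2 folds were -0.93 (-1.70 to -0.21) at 6 h and 0.97 (0.41 to 1.57) at 1 week, and for Gins2 they were -1.05 (-1.81 to -0.34) and 0.70 (0.045 to 1.38).

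Of the other ring subunits, Mcm7 was lower at 6 h by size, at -0.60 (-0.96 to -0.24), and Mcm2 and Mcm4 were higher at 1 week, at 0.99 (0.41 to 1.61) and 0.60 (-0.038 to 1.27). The Mcm4 interval included 0. With median-of-ratios scaling Mcm7 was at -0.53 at 6 h and Mcm4 at 0.57 at 1 week, both under 1.5-fold. Mcm3 stayed under 1.5-fold at both times, at -0.26 (-0.50 to -0.028) and 0.38 (0.13 to 0.64), with 244 UMIs in the irradiated library against 387 in the sham library at 6 h and 363 against 205 at 1 week. The loading factor Cdc6, the initiation factor Mcm10 and the helicase cofactor Cdc45 were not measured in either comparison. At 1 week the irradiated library held 11 UMIs of Cdc6, 14 of Mcm10 and 23 of Cdc45, against 0, 0 and 5 in the sham library.

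Pcna, the sliding clamp that also serves repair synthesis (ENSMUSG00000027342, chromosome 2, 132249162 to 132253314), was the only listed gene at least 1.5-fold higher at 6 h. It was at 85.7 CPM in the irradiated library against 55.1 CPM in the sham library at 6 h, and at 73.2 against 68.2 CPM, irradiated against sham, at 1 week. The log2 fold was 0.64 (0.47 to 0.81) at 6 h and 0.10 (-0.086 to 0.29) at 1 week. The sham libraries themselves differed, at 68.2 CPM at 1 week against 55.1 CPM at 6 h (0.31, 0.12 to 0.50). Against the sham library at 1 week the irradiated library at 6 h was at 0.33, under 1.5-fold. A processed pseudogene, Pcna-ps2, is listed on its own with 12 to 25 UMIs a library, so reads could be split between it and Pcna.

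Of the clamp loaders, Rfc4 was higher at 1 week, at 1.09 (0.47 to 1.75), while Rfc2 was at -0.063 at 6 h and 0.21 at 1 week, and Rfc3 at -0.31 and -0.0072. The primase subunit Prim1 (1.19, 0.42 to 2.02) and the catalytic polymerase alpha subunit Pola1 (0.88, 0.010 to 1.81) were also higher at 1 week. Rpa2, which coats single-stranded DNA, was lower at 6 h (-0.60, -0.99 to -0.21, but -0.53 with median-of-ratios scaling) and at 0.098 (-0.26 to 0.46) at 1 week. The flap endonuclease Fen1 and the polymerase delta subunit Pold3 stayed under 1.5-fold at both times. The nuclease Exo1 and the alternative loader subunit Dscc1 were not measured, with 17 and 17 UMIs in the irradiated library against 1 and 3 in the sham library at 1 week.

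Thymidylate synthase, Tyms, had 143 UMIs in the irradiated library against 180 in the sham library at 6 h, and 225 against 91 at 1 week. The log2 fold was close to 0 at 6 h (0.070, -0.26 to 0.40) and the gene was higher at 1 week (0.86, 0.51 to 1.23). Rrm1, the large subunit of ribonucleotide reductase, was lower at 6 h (-1.01, -1.47 to -0.57) and stayed under 1.5-fold at 1 week (0.51, 0.089 to 0.95). None of the fork genes passed 1.5-fold where measured: Tipin, which holds the fork together with Timeless, was at -0.50 (-0.87 to -0.14) at 6 h and 0.26 (-0.086 to 0.61) at 1 week, and the deubiquitinase Usp1 at -0.35 (-0.68 to -0.020) and 0.38 (0.019 to 0.75). The checkpoint adaptor Clspn and the ubiquitin ligase receptor Dtl had 28 and 32 UMIs in the irradiated library against 4 and 4 in the sham library at 1 week.

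Cdca7, a partner of the chromatin remodeller Hells in DNA methylation (ENSMUSG00000055612, chromosome 2, 72476159 to 72486893), had the lowest fold of all measured members at 6 h. It had 83 UMIs (11.3 CPM) in the irradiated library against 320 (32.9 CPM) in the sham library at 6 h, and 227 (29.4 CPM) against 186 (32.8 CPM) at 1 week. The irradiated library at 6 h stood apart, and the other 3 libraries lay between 29.4 and 32.9 CPM. The log2 fold was -1.54 (-1.91 to -1.19) at 6 h and -0.16 (-0.44 to 0.13) at 1 week. With each cell thinned to 2000 UMIs, 2.11% of cells (1.51 to 2.86) carried it in the irradiated library against 6.45% (5.53 to 7.47) in the sham library at 6 h. Without thinning the shares were 3.83% in the irradiated and 10.9% in the sham library.

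Hells itself had 9 UMIs in the irradiated library against 39 in the sham library at 6 h, short of the minimum, and 48 against 10 at 1 week, a log2 fold of 1.82 (0.82 to 2.97). Slbp, which binds the stem-loop of histone mRNA, was at 82.1 against 103 CPM, irradiated against sham, at 6 h and at 114 against 88.8 CPM at 1 week. Both Slbp folds were under 1.5-fold, at -0.33 (-0.47 to -0.18) and 0.36 (0.20 to 0.52). The histone chaperone subunit Chaf1b had 32 UMIs in the irradiated and 6 in the sham library at 1 week, and Uhrf1, which reads hemimethylated DNA, had 24 and 5. E2f8, a repressor of the E2F family, had between 1 and 10 UMIs a library.

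**Figure D1:**
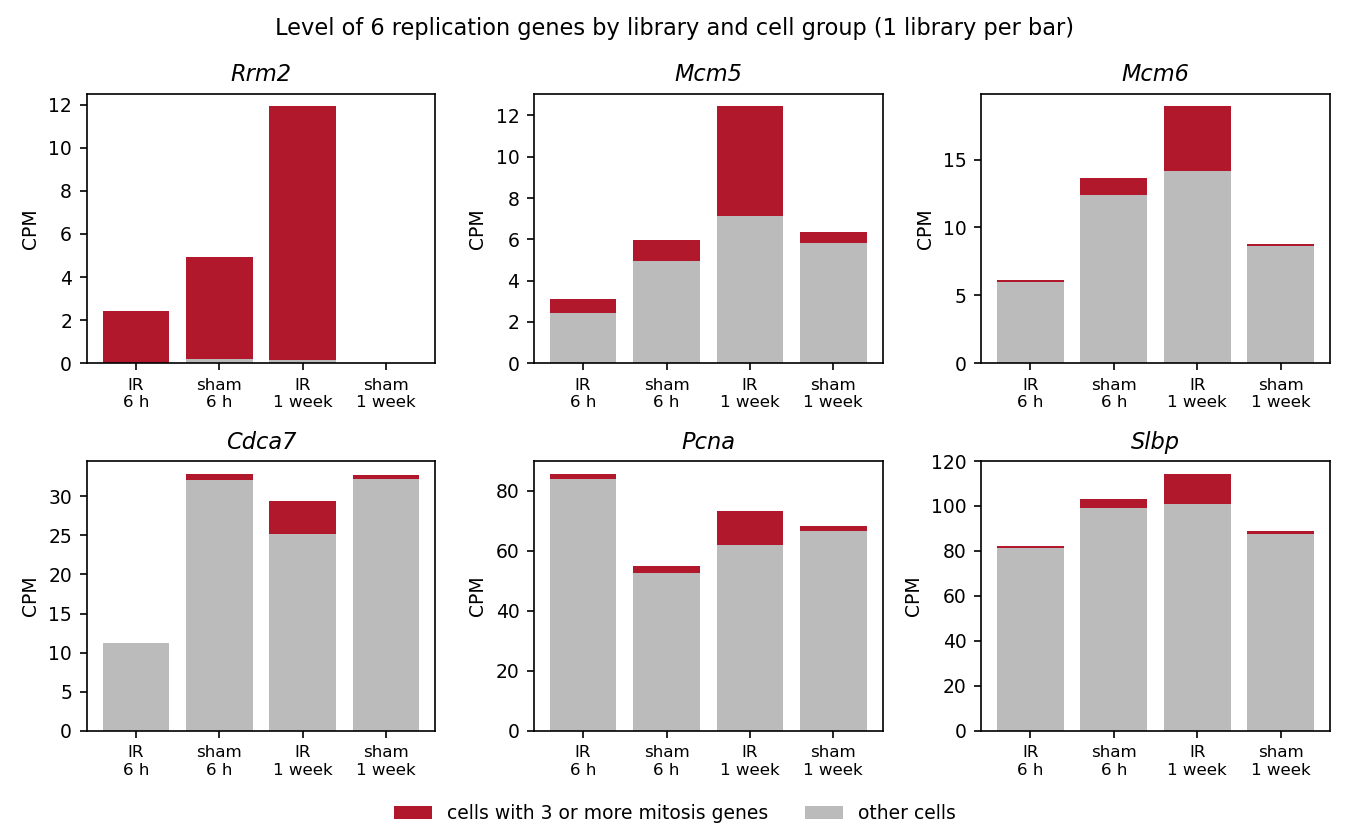
Level of 6 of the listed genes in each library, in CPM of the whole library, with the irradiated (IR) library left of its sham library at each time. Red is the part from cells with at least 3 mitosis genes and grey the part from other cells. Cdca7 is low in the irradiated library at 6 h alone, at 11.3 CPM, while Rrm2 comes nearly whole from the red part and is highest in the irradiated library at 1 week, at 11.9 CPM.

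Counted together at 6 h, 22 of the 34 genes were measured. Irradiated against sham, 8 were lower, namely Mcm5, Mcm6, Mcm7, Gins2, Rpa2, Rrm1, Rrm2 and Cdca7, where 9.31% of all 9934 measured genes were. Pcna was the 1 that was higher, where 8.97% of all genes were. The median log2 fold of the measured members was -0.35 and that of all measured genes -0.062. The summed level was 460 CPM in the irradiated library against 545 CPM in the sham library, a log2 fold of -0.24 (-0.31 to -0.18).

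At 1 week 24 were measured and 11 were higher, namely Mcm2, Mcm4, Mcm5, Mcm6, Gins2, Rfc4, Prim1, Pola1, Tyms, Rrm2 and Hells, where 4.01% of all 9518 measured genes were. None was lower, against 3.12% of all genes. The median log2 fold was 0.52 for these genes and 0.036 for all. The sum was 674 CPM in the irradiated library against 501 CPM in the sham library (0.43, 0.36 to 0.50). Rrm2, Hells, Prim1 and Pola1 reached 50 UMIs at 1 week only through the irradiated library, and Rrm2 at 6 h only through the sham library, so that passing the minimum and being called were not independent for them.

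The choice of sham library bears on these counts. Between the sham libraries, 1 week over 6 h, 1 of 21 measured genes was lower (Mcm6, at -0.63), where 4.89% of all genes were, and 0 were higher, where 2.89% were. Their summed level was 501 CPM at 1 week against 545 CPM at 6 h. Against the sham library at 1 week, 5 of 20 genes were lower in the irradiated library at 6 h, where 9.51% of all were: Mcm5, Gins2, Rpa2, Rrm1 and Cdca7. None was higher, where 11.8% of all genes were. Against the sham library at 6 h, 10 of 26 were higher in the irradiated library at 1 week, where 3.81% of all were, and 0 were lower, where 4.83% were. Against the sham library at 1 week, Mcm5 and Gins2 reached 50 UMIs only through that sham library. Against the sham library at 6 h, Dtl, Chaf1b and Pola1 reached 50 UMIs only through the irradiated library. Passing the minimum and being called were thus not independent for them. These comparisons share libraries with those above, and the age of the mice and the library cannot be told apart.

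The counts also moved with the thresholds, and each bracket below gives the share of all measured genes called at that setting. At 2-fold the numbers of members measured are those given above. The numbers measured from 100 and from 20 UMIs are not given, so those counts cannot be set against the shares. From 100 UMIs, 5 genes were lower at 6 h (7.97% of all) and 5 were higher at 1 week (2.60% of all). At 1 week Mcm2, Mcm5 and Rfc4 reached 100 UMIs only through the irradiated library. From 20 UMIs, 17 were higher at 1 week (5.79% of all). Of these, Cdc45, Clspn, Dtl, Uhrf1, Chaf1b, Dscc1 and Rrm2 reached 20 UMIs only through the irradiated library. For such genes passing the minimum and being called were not independent. At 2-fold, 0 were higher (4.20% of all) and 5 lower (2.16% of all) at 6 h, and 5 were higher at 1 week (1.48% of all). Between the sham libraries, 6 were lower at 1 week from 20 UMIs (6.76% of all), 0 at 2-fold (1.41% of all) and 0 with median-of-ratios scaling (3.99% of all). There Cdc45, Dtl, Chaf1b and Rrm2 reached 20 UMIs only through the sham library at 6 h. For irradiated at 6 h over sham at 1 week, 1 was higher from 20 UMIs (13.6% of all), 3 were lower from 100 UMIs (7.92% of all) and 2 at 2-fold (2.06% of all). The gene that was higher, Chaf1b, reached 20 UMIs only through the irradiated library. For irradiated at 1 week over sham at 6 h, 6 were higher from 100 UMIs (2.74% of all) and 4 at 2-fold (1.23% of all). Here Prim1 and Rrm2 reached 100 UMIs only through the irradiated library.

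**Figure D2:**
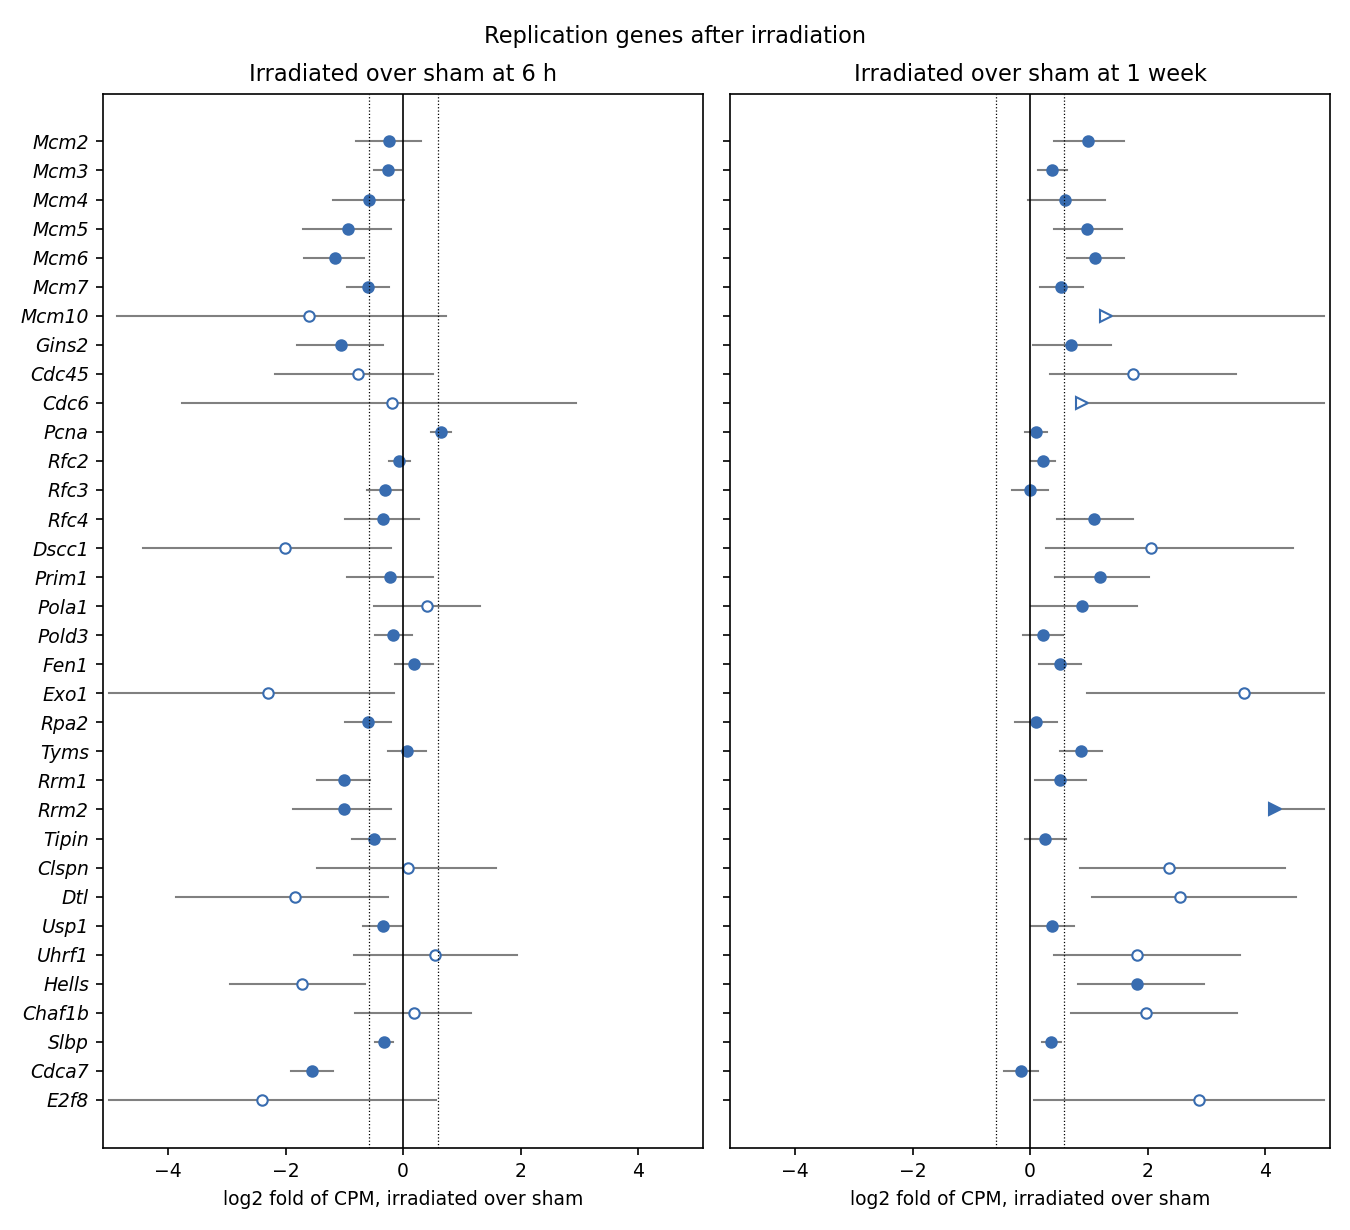
Log2 fold of irradiated over sham for each of the 34 genes at 6 h and at 1 week, grouped by role, with exact 95% intervals cut at 5 on either side; open points have under 50 UMIs, dotted lines mark 1.5-fold and arrows mark the lower bound of genes at 0 in the sham library. At 6 h the 22 measured genes have a median of -0.35, against -0.062 for all measured genes, with Pcna highest at 0.64. At 1 week the 24 measured genes have a median of 0.52, against 0.036 for all. Of these, Rrm2, Hells, Prim1 and Pola1 reached 50 UMIs only through the irradiated library.

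Which cells carried the UMIs was asked with genes outside the list. Cells with UMIs of at least 3 of 38 mitosis genes, such as Mki67 and Top2a, are called dividing cells here. There were 10 of them in the irradiated library (0.504% of cells, 0.242 to 0.924) against 30 in the sham library (1.13%, 0.765 to 1.61) at 6 h. At 1 week there were 44 in the irradiated library (2.05%, 1.49 to 2.74) against 6 in the sham library (0.379%, 0.139 to 0.824). The 2 sham libraries thus differed too, at 0.379% at 1 week against 1.13% at 6 h. Thinned to 2000 UMIs, the shares were 0.316% in the irradiated against 0.703% in the sham library at 6 h, and 1.62% against 0.144% at 1 week.

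The class is a range of a count and not a cell type: between 21 and 57 further cells a library carried exactly 2 mitosis genes. Its cells were deeper than the rest, with medians of 5391 to 6348 UMIs against 3419 to 3590 in other cells. Of the dividing cells of the sham library at 6 h, 1 of 30 carried at least 3 of 6 border macrophage markers, and 1 of 10 in the irradiated library at 6 h carried fewer than 5 microglia markers. Leaving out all cells with those border macrophage markers changed none of the counts of higher or lower genes.

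The listed genes together stood at 4069 CPM in dividing cells against 550 CPM in other cells of the irradiated library at 1 week. In the other libraries they stood at 2061 against 448 CPM (irradiated, 6 h), 2516 against 509 CPM (sham, 6 h) and 1722 against 492 CPM (sham, 1 week). In the irradiated library at 1 week all 22 genes with 50 UMIs were at least 1.5-fold higher in dividing cells, where 23.1% of all genes were. The same held for 12 of 14 in the irradiated library at 6 h, where 25.4% of all were, for 19 of 20 in the sham library at 6 h (21.4% of all) and for 12 of 15 in the sham library at 1 week (23.3% of all).

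Even so, most UMIs of the list lay outside dividing cells. Dividing cells held 3.39% of them in the irradiated library against 8.31% in the sham library at 6 h, and 21.3% in the irradiated library against 2.32% in the sham library at 1 week. They held 1.77% of all UMIs over the 4 libraries. The genes differed widely in this share, also within a role: among helicase genes Cdc6 was at 93.8% and Mcm3 at 7.34%.

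At one end, 98.1% of the 158 UMIs of Rrm2 (94.6 to 99.6) and 93.8% of the 16 UMIs of Cdc6 (69.8 to 99.8) lay in dividing cells. E2f8 (78.9%), Mcm10 (66.7%), Exo1 (57.6%), Clspn (56.0%), Dtl (55.9%) and Uhrf1 (52.0%) completed the 8 genes at or above 50%. A middle group of 6 between 20% and 50% held Cdc45, Hells, Dscc1, Mcm5, Prim1 and Chaf1b. The 50% line fell between Uhrf1 at 52.0% and Cdc45 at 42.6%.

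At the other end, over the 4 libraries together, 20 genes had under 20% of their UMIs in dividing cells and 10 had under 10%: Rpa2, Tipin, Usp1, Mcm3, Pcna, Rfc3, Cdca7, Slbp, Pold3 and Rfc2. Rfc2 was at 3.80% and Pold3 at 4.08% of the pooled UMIs. The pooled share mixes libraries that differ in dividing cells: in the irradiated library at 1 week Rfc2 (8.07%) and Pold3 (8.51%) were under 10%, while Slbp was at 11.7%, Pcna at 15.6% and Tipin at 17.9%. In the sham library at 6 h Cdca7, at 2.50%, was below Rfc2, at 2.90%. Many cells outside the dividing class carried such genes: Slbp was found in 29.2%, Rfc2 in 19.4% and Pcna in 18.9% of the other cells of the irradiated library at 1 week. Rrm2 was found in 0.0475% of the same cells, at a median depth of 3419 UMIs against 5810 in dividing cells. No background share was measured, and the part of free RNA in these shares was not tested.

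**Figure D3:**
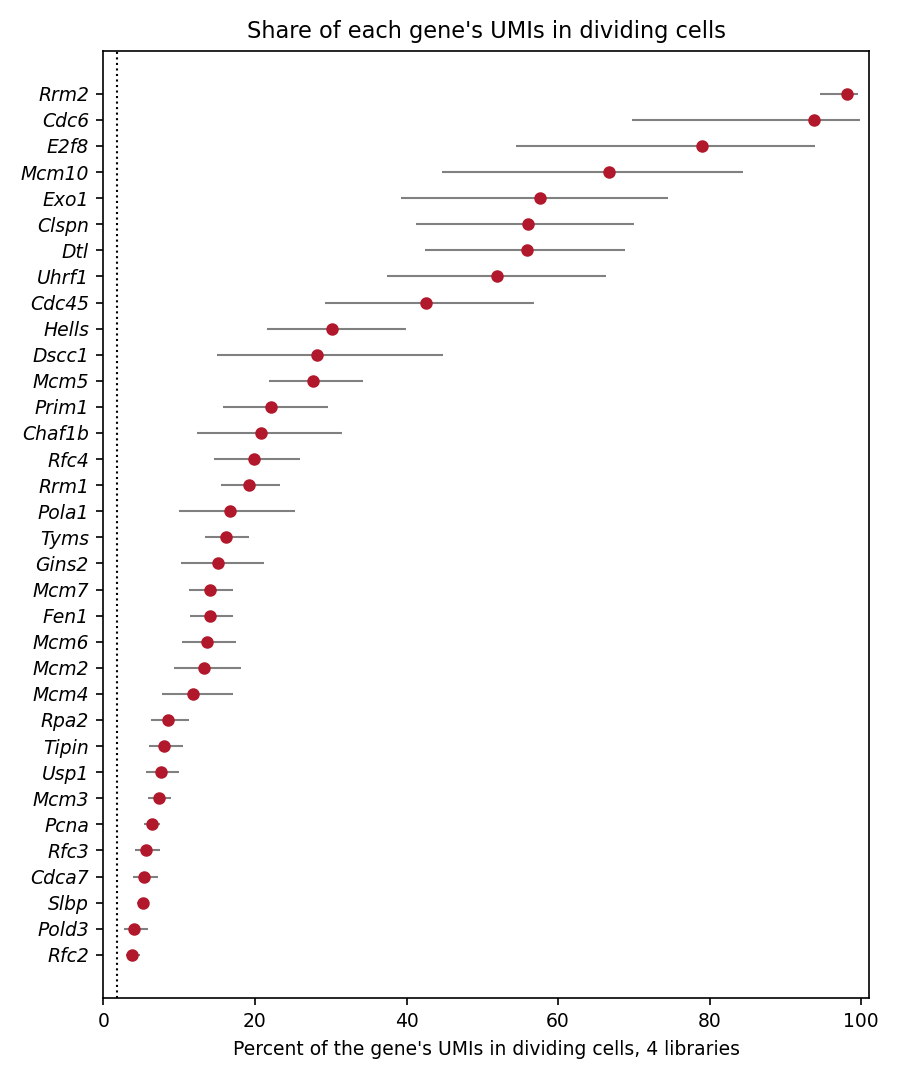
Share of the UMIs of each gene that lay in dividing cells (at least 3 mitosis genes), in percent over the 4 libraries, with exact 95% intervals; the dotted line is the share of all UMIs in those cells, 1.77%. Rrm2 (98.1%) and Cdc6 (93.8%) stand at one end and Rfc2 (3.80%) at the other, with the libraries pooled.

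The folds were then taken over other cells alone. At 6 h, 5 of 21 measured genes were still lower in the irradiated library, namely Mcm5 (-1.03), Mcm6 (-1.07), Gins2 (-0.91), Rrm1 (-0.90) and Cdca7 (-1.52), where 8.74% of all genes were. Pcna was higher at 0.66, where 9.02% of all genes were. At 1 week 4 of 21 were higher, namely Mcm2 (0.62), Mcm6 (0.75), Rfc4 (0.60) and Prim1 (1.08), where 3% of all genes were, and 0 were lower, where 3.37% were. Between the sham libraries 0 were lower in other cells (4.48% of all genes), and for irradiated at 1 week over sham at 6 h 2 were higher (3.16% of all). The 1 week intervals of Mcm6 (0.25 to 1.27) and Prim1 (0.20 to 2.04) lay above 0, while that of Rfc4 (-0.080 to 1.31) included it. For Mcm2, with 67 UMIs in other cells of the irradiated against 33 of the sham library, the interval began close to 0. Prim1 at 1 week, with 42 UMIs against 15, reached 50 UMIs in other cells only through the irradiated library. Mcm5 at 6 h, with 18 against 48, did so only through the sham library. So did Pola1 through the irradiated library at 1 week over sham at 6 h. Passing the minimum and being called were not independent for these genes.

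In CPM of the whole library, dividing cells supplied 143 CPM of the listed genes in the irradiated library against 11.6 CPM in the sham library at 1 week, and other cells supplied 531 against 489 CPM. At 6 h dividing cells supplied 15.6 against 45.3 CPM, irradiated against sham, and other cells 444 against 500 CPM. For Cdca7 at 6 h other cells supplied 11.3 CPM in the irradiated library against 32.0 CPM in the sham library. Rrm1 at 1 week was at -0.018 (-0.49 to 0.46) in other cells, against 0.51 in all cells.

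**Figure D4:**
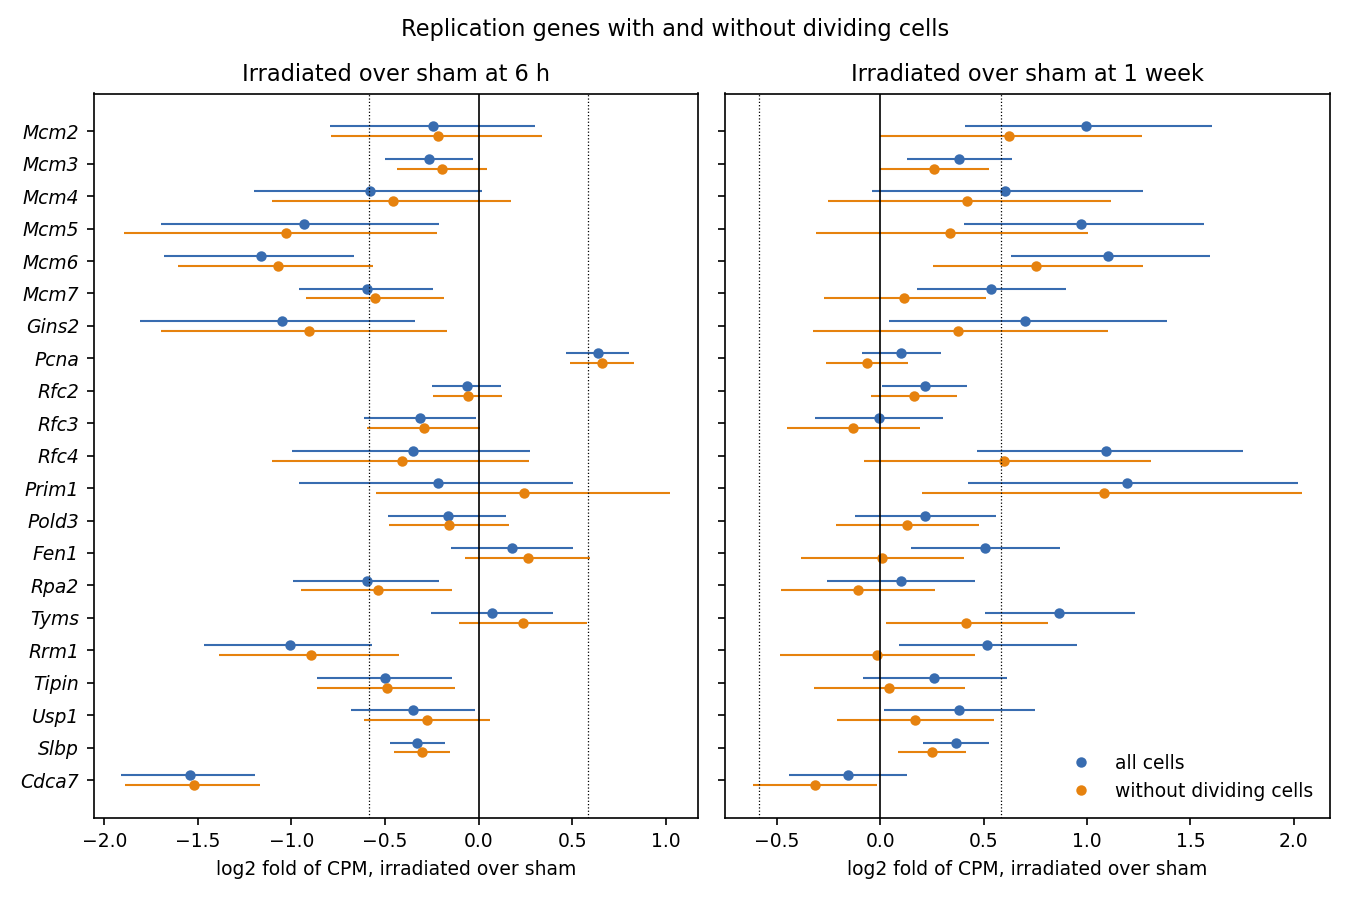
Log2 fold of irradiated over sham in all cells and in cells with fewer than 3 mitosis genes, for 6 h and 1 week, with exact 95% intervals and dotted lines at 1.5-fold, for the 21 genes measured in both sets of cells at both times. Cdca7 at 6 h is at -1.54 in all cells and -1.52 without dividing cells, while Mcm5 at 1 week is at 0.97 in all cells and 0.34 without them.

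Cells rich in the listed genes were also counted without use of mitosis genes. At least 8 of the 34 were found in 6 cells of the irradiated library (0.302%) against 30 cells of the sham library (1.13%) at 6 h, and in 67 (3.12%) against 9 (0.569%) at 1 week. Of these, 2 and 17 cells at 6 h and 37 and 7 cells at 1 week, irradiated and sham, carried fewer than 3 mitosis genes, so part of them was not in the dividing class. No mitosis gene at all was found in 19 of the 67 rich cells of the irradiated library at 1 week. With each cell thinned to 2000 UMIs, which left out 90 cells of the irradiated and 93 of the sham library at 6 h and 109 and 189 at 1 week, at least 5 listed genes were found in 0.316% of cells of the irradiated library against 1.21% of the sham library at 6 h, and in 2.55% against 0.574% at 1 week.

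At least 1 listed gene was found in 57.1% of thinned cells of the irradiated library against 60.8% of the sham library at 6 h, and in 61.0% against 62.2% at 1 week. At this depth the libraries were close in how many cells carried any of the genes and further apart in how many carried 5 or more. That gap depended on the thinning: with all UMIs, 5 or more were found in 2.27% of cells of the irradiated against 3.43% of the sham library at 6 h, and in 5.40% against 3.16% at 1 week. The rich cells, with at least 8 listed genes, held 31.0% of the UMIs of the list in the irradiated library at 1 week, against 5.67% in the sham library. These cells were chosen by the same genes, so that share is set in part by the rule. Each gene was then taken outside the cells that carried at least 7 other listed genes, a class built from the same list, which differs from gene to gene and removes UMIs of the very genes counted. At 6 h 5 genes were then lower, and at 1 week 0 were higher, with a median log2 fold of 0.019. The nearest shares over all genes, outside 1 fixed set of cells with at least 7 listed genes, were 8.22% lower at 6 h and 2.29% higher at 1 week.

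**Figure D5:**
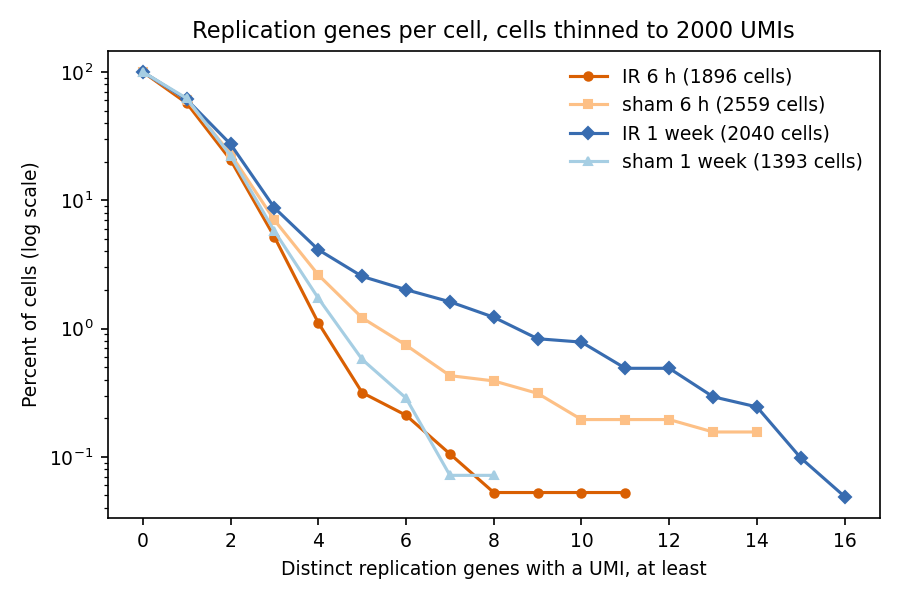
Share of cells that carried at least a given number of the 34 genes, after thinning each cell to 2000 UMIs, for the 4 libraries (log scale on the vertical axis, percent). The libraries lie close together at 1 gene, at 57.1% to 62.2%, and spread apart from 5 genes, where the irradiated library at 1 week is at 2.55% and that at 6 h at 0.316%.

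Cdkn1a was read in the same cells. In the irradiated library at 1 week it was at 1821 CPM (1664 to 1989) in dividing cells, 39 of 44 of which carried it, and at 2221 CPM (2187 to 2255) in other cells. Cells with at least 8 listed genes were at 1594 CPM (1412 to 1792) where they also carried at least 3 mitosis genes, at 550 CPM (451 to 666) where they carried fewer than 3 and at 802 CPM (629 to 1006) where they carried none. Dividing cells with fewer than 8 listed genes were at 2229 CPM (1943 to 2546), and cells of neither class at 2265 CPM (2230 to 2300). In the irradiated library at 6 h it was at 3137 CPM in the 10 dividing cells and 2943 CPM in other cells, and at 1417 CPM (775 to 2378) in the 2 cells with at least 8 listed genes and fewer than 3 mitosis genes. In the sham libraries it was at 553 CPM in dividing cells against 43.0 CPM in other cells at 6 h, and 1 cell held 50 of the UMIs in these dividing cells, of which 14 of 30 carried it. At 1 week it was at 183 against 55.9 CPM in the sham library.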

How the data were processed

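The authors deposited a matrix of unnormalized UMI counts for each library. It was made with Cell Ranger 2.0 on mm10, per the submitters' processing notes, and neither the barcode threshold nor the annotation is given in the sources used here. Barcodes with at least 1000 UMIs and 500 genes and at most 10% mitochondrial UMIs were kept. Scrublet (scanpy 1.11.5, expected rate 0.06) called 54 doublets (0.645%), 1 of them a dividing cell. They were left in, and missed doublets can remain.

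Counts were summed per library and divided by its total. All 34 members could be named; of 71 other replication genes, the 3 highest and 3 lowest folds past 1.5-fold in each comparison, and Cdkn1a as the readout. The members and lists were chosen with earlier results of these data known. Coordinates are from GENCODE vM21 and promoters from RefSeq. Alternatives were other barcode filters, scaling, minimum counts, folds, thinning depths and cell classes. The intervals of the folds were checked on library sums simulated from the same counting model that they assume. That simulation left out the clumping of UMIs in single cells, so it cannot show how well the intervals hold here. Python 3.11.15, numpy 2.4.6 and scipy 1.17.1 were used.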

Additional observations from a re-analysis of the deposited data

Results flagged for a closer look

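Mcm6, Mcm5, Gins2 and Rrm2 were lower at 6 h and higher at 1 week, each past 1.5-fold against its own sham library. The log2 fold at 1 week minus that at 6 h was 2.26 for Mcm6, 1.90 for Mcm5 and 1.75 for Gins2. For Rrm2 it was 5.51 with 3 counts put in place of the 0 of the sham library at 1 week. Mcm6 itself differed between the sham libraries (-0.63, 1 week over 6 h), and against the other sham library it was at -0.53 at 6 h and 0.47 at 1 week, both under 1.5-fold. Gins2 was then at -0.71 at 6 h and 0.36 at 1 week, and Mcm5 at -1.02 and 1.06. At 6 h Gins2 and Mcm5 reached 50 UMIs in that comparison only through the sham library at 1 week. Rrm2 was at 1.27 at 1 week against the sham library at 6 h, and at 6 h it had 18 UMIs against 0 in the sham library at 1 week. With 1 library a group, these differences between the times were not tested.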

How the results depend on the processing

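No paired analysis was possible because each group has 1 library. The use of all barcodes, of cells with at least 5 microglia markers, or of cells without called doublets moved none of the counts, medians or sums by more than the bounds set. Without cells that carry at least 3 mitosis genes, 5 genes were lower at 6 h, and 4 were higher at 1 week with a median log2 fold of 0.17 and a summed one of 0.16. Rrm1 at 1 week turned to -0.018. Between the sham libraries 0 were then lower (4.48% of all, sum -0.047). For irradiated at 1 week over sham at 6 h 2 were higher (3.16% of all, median 0.16, sum 0.11). As above, some genes reached the minimum only through the library in which they were higher. Without cells that carry at least 7 other members, a setting chosen after seeing the data, built from the same genes and scaled to the whole library, 5 were lower at 6 h, and 0 were higher at 1 week (median 0.019). The nearest shares over all genes, outside 1 fixed set of cells, were 8.22% lower at 6 h and 2.29% higher at 1 week.

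With a minimum of 100 UMIs, 5 were lower at 6 h (7.97% of all genes) and 5 higher at 1 week (2.60% of all). With 20 UMIs 17 were higher at 1 week (5.79% of all). As above, some genes reached these minimum counts only through the library in which they were higher. Brackets give shares of all measured genes, and the numbers of members measured from 100 or 20 UMIs are not given. At 2-fold, 0 were higher (4.20% of all) and 5 lower (2.16% of all) at 6 h, and 5 were higher at 1 week (1.48% of all). With median-of-ratios scaling the sum at 6 h was -0.18. Mcm7 and Rpa2 were then no longer lower at 6 h, and Mcm4 was no longer higher at 1 week. Between the sham libraries 0 were lower with this scaling (3.99% of all). From 20 UMIs 6 were lower between them (6.76% of all), and 0 at 2-fold (1.41% of all). For irradiated at 6 h over sham at 1 week, 1 was higher from 20 UMIs (13.6% of all). From 100 UMIs 3 were lower (7.92% of all), and 2 at 2-fold (2.06% of all). For irradiated at 1 week over sham at 6 h, 6 were higher from 100 UMIs (2.74% of all) and 4 at 2-fold (1.23% of all).

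Thinned to 3000 UMIs, at least 5 listed genes were found in 1.12% of cells of the irradiated and 2.07% of the sham library at 6 h, and in 5.22% and 1.19% at 1 week. Without thinning these shares were 2.27%, 3.43%, 5.40% and 3.16% in the same order. From 2 mitosis genes, dividing cells held 4.81% of the UMIs of the list in the irradiated and 11.8% in the sham library at 6 h, and 23.8% and 4.19% at 1 week. From 5 mitosis genes they held 2.66%, 6.78%, 16.7% and 1.58%. The median share of a gene's UMIs in cells with at least 3 other members was 28.8% (irradiated) and 41.4% (sham) at 6 h, and 60.9% (irradiated) and 34.5% (sham) at 1 week. With at least 2 it was 50%, 62.4%, 74.2% and 54.5%. Genes with few UMIs, such as E2f8 with 1 to 10 a library, limit what these libraries can show, and intervals do not cover the spread between mice.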

Other observations

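Of 71 other replication genes, 49 were measured at each time. At 6 h, irradiated against sham, 8 were lower (16.3%, against 9.31% of all genes) and 4 higher (8.16%, against 8.97%), with a median log2 fold of -0.18. The lowest were the histone chaperone Asf1b (-1.32, -2.12 to -0.58), the DNA ligase of the lagging strand Lig1 (-1.29, -1.87 to -0.74) and the licensing inhibitor Gmnn (-1.06, -1.78 to -0.38). The highest were Pola2, the second subunit of polymerase alpha (0.96, 0.71 to 1.22), the mismatch repair gene Msh6 (0.69, 0.24 to 1.14) and the fork factor Donson (0.68, 0.35 to 1.00).

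At 1 week 7 were higher (14.3%, against 4.01% of all genes) and 1 was lower (2.04%, against 3.12%), with a median of 0.23. Thymidine kinase, Tk1, had 86 UMIs in the irradiated library against 7 in the sham library, a log2 fold of 3.18 (2.07 to 4.53). Tk1 reached the minimum count only through the irradiated library, so passing the minimum and being called were not independent for it. Whether this also held for other genes called in this list, at either time or between the sham libraries, was not tested. The shares called are therefore not a like-for-like match to those of all genes. Asf1b was at 1.59 (0.86 to 2.40). The gene that was lower was Rrm2b, the small reductase subunit that p53 induces (-0.67, -1.16 to -0.17), at 8.55 CPM in the irradiated library against 13.6 CPM in the sham library.

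Between the sham libraries, 1 week over 6 h, 0 of these genes were higher (2.89% of all genes) and 6 were lower (4.89% of all), with a median of -0.10, and the lowest included Pola2 at -0.89.

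The mitosis genes used to mark dividing cells were themselves lower at 6 h in 20 of 22 measured (9.31% of all genes were lower), with a median of -1.83, and higher at 1 week in 27 of 27 (4.01% of all were higher), with a median of 2.51. Between the sham libraries, 1 week over 6 h, 20 of 22 were lower too (4.89% of all were), with a median of -1.36. The irradiated library at 6 h and the sham library at 1 week were both low in these genes, with 537 and 512 UMIs. When these libraries were compared, only 5 of the 38 genes reached the minimum count. Most genes measured in the other comparisons thus passed it largely through the higher library. Passing the minimum and being called were not independent for them.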
